A study of Mus musculus with 44 samples.

Results

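Transcripts of 37 genes of inflammatory signalling were followed in mouse ovarian follicles exposed to PFNA: cytokines and chemokines, their receptors, the adaptors and kinases below those receptors, subunits of the transcription factor NF-kappaB, its inhibitors and targets, and the STAT3 arm. The genes were taken by symbol from a fixed list of names, and all 37 were found in both deposited tables, which together hold 24221 symbols. PFNA, perfluorononanoic acid, is a long-chain perfluorinated compound. All follicles came from wild-type CD-1 mice, an outbred stock, and the labelled tissue is ovary. In the maturation window, 11 control libraries from follicles given the solvent DMSO were set against 10 libraries from follicles given PFNA. In the ovulation window, 12 control libraries from follicles given hCG, human chorionic gonadotropin, were set against 11 libraries from follicles given hCG together with PFNA. All libraries of the ovulation window, controls included, had therefore received the ovulatory hormone. The labels name neither the dose, the exposure time or the age of the mice nor the animals or cultures behind each library, so p-values measure only the spread between these libraries, which may be technical. Whole follicles were sequenced in bulk, and fewer cells of a type and less RNA per cell cannot be told apart.

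Ovulation shares many features with an acute inflammatory reaction. NF-kappaB is held in the cytoplasm by IkappaB proteins and is released when receptors for IL-1, TNF or bacterial products activate the IkappaB kinase. It then switches on cytokines, chemokines and its own inhibitors. Cytokines of the IL-6 family signal through the shared receptor chain gp130 to STAT3, which induces its own brake, Socs3, and in the ovary these cytokines are known for their part in expansion of the cumulus around the oocyte.

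Promoter stretches are shown for 5 members that hold the NF-kappaB consensus within the RefSeq promoter window and that carry the contrasts described here: Il6 and Nfkbia, which fell in the ovulation window, Cxcl10, which rose there, and the neighbouring genes Cxcl1 and Cxcl2. They are given 5′ to 3′ on the strand of the gene, from RefSeq on GRCm38.p6, and end before the annotated start of transcription. Capitals mark matches on either strand to the NF-kappaB consensus, to the AP-1 site TGANTCA and to the C/EBP motif TTNNGCAA.
Il6, chr5:30012864-30013113, plus strand: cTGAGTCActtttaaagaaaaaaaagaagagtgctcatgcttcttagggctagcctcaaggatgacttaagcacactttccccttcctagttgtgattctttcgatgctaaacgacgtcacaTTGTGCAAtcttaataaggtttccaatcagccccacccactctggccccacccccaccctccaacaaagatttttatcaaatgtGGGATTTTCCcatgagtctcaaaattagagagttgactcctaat
Cxcl1, chr5:90891135-90891240, plus strand: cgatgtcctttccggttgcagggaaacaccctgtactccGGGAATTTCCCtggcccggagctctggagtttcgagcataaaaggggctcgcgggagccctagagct
Cxcl2, chr5:90903789-90903870, plus strand: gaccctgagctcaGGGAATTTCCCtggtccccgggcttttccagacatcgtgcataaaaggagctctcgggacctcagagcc
Cxcl10, chr5:92348890-92349059, minus strand: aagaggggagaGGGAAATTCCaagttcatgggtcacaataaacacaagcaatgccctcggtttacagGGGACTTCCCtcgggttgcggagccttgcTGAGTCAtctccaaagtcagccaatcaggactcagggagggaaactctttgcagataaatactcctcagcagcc
Nfkbia, chr12:55492648-55492707, minus strand: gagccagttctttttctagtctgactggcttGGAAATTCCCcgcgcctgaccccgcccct

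RefSeq gave promoter windows, from 250 bases before to 50 bases after the start, for 30 of the 37 members, 39 windows in all. The NF-kappaB consensus was found in 13 of these windows (33.3%), belonging to 11 members: Csf1, Cxcl1, Cxcl2, Cxcl10, Il1r1, Il6, Nfkb2, Nfkbia, Nfkbie, Tlr2 and Tnfaip3. Among all 32851 windows of the same length 4.51% held it. The AP-1 site was found in 25.6% of the members' windows and in 7.81% of all, the C/EBP motif in 5.13% and 10.8%, and the cyclic AMP response element TGACGTCA in none of the members' windows and in 1.79% of all. In Cxcl1 and Cxcl2 the consensus matched on both strands with a shift of 1 base, so the overlapping matches read as a single block of capitals. Of the 11 members with the consensus, 7 fell and 1 rose in the ovulation window. Of the 19 members with a window and no consensus, 10 fell and 4 rose. Over all genes tested in that window 35.2% fell and 38.0% rose. Members with the motif thus moved in both directions in the ovulation window, though Cxcl10 alone rose. Members without it also moved in both directions. In the maturation window 4 of the 11 rose and 0 fell, and of the 19 without it 3 rose and 1 fell. Over all genes tested in the maturation window 13.3% rose and 16.1% fell. A match describes these letters and does not show that the factor bound there.

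In the ovulation window Il6, Il11, Lif, Socs3 and Stat3 were lower with PFNA, as were Il1r1, Tnfrsf1a, Myd88 and Traf2, which encode receptors and adaptors for IL-1 and TNF, whereas Cxcl10, Tlr4, Ccl2, Relb and Icam1 were higher. Of 36 members tested by edgeR, 18 fell and 8 rose at an adjusted p under 0.05, and 10 were not called. Over all 13441 genes tested, 35.2% were called lower and 38.0% higher. The members' median log2 fold change was -0.41, against 0.04 over all genes. Of the members called, 9 fell and 3 rose by 2-fold or more. In 8 members every PFNA library lay below every control, as in 14.1% of all genes tested, and in 2 members every PFNA library lay above every control, as in 11.9%. Traf1, an adaptor of TNF receptors, was too low to test in this window. Levels in this window are TMM-normalised counts per 1000000 counts (CPM), which are not divided by transcript length and are not compared between genes.

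**Figure D1:**
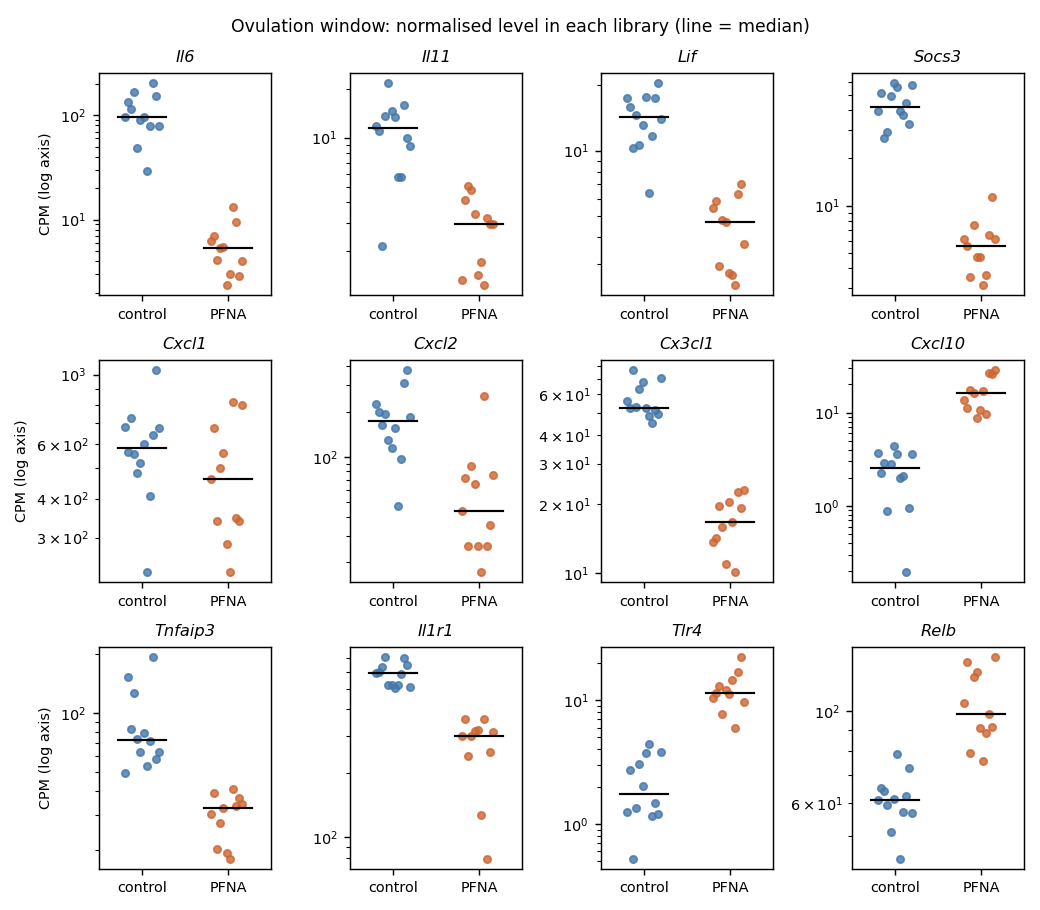
Levels of 12 members in the ovulation window in TMM-normalised CPM on log axes, 1 point per library, with 12 control and 11 PFNA libraries per panel and the line at the median. Every PFNA library lies below every control for Il6, Socs3, Cx3cl1, Tnfaip3 and Il1r1 and above every control for Cxcl10 and Tlr4, whereas the groups overlap for Cxcl1 and Cxcl2.

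The largest fall among members was in Il6 (chromosome 5, 30013114 to 30019981), which encodes interleukin-6. Its level was 29.6, 96.4 and 203 CPM (lowest, median and highest) in controls and 2.37, 5.37 and 13.3 CPM with PFNA. The groups did not overlap, and the difference amounted to 18.6-fold (log2 fold change -4.22, SE 0.33, edgeR adjusted p = 3.4e-11). The estimated counts behind these values ran from 474 to 2091 in controls and from 33 to 182 with PFNA, so the low group was not at the floor of detection. Lif (chromosome 11, 4257557 to 4272514), leukaemia inhibitory factor, was measured at 6.37, 14.3 and 20.4 CPM in controls and at 2.42, 4.71 and 7.01 CPM with PFNA. It fell by 1.67 on the log2 scale (SE 0.20, edgeR adjusted p = 4.7e-08), and 10 of 11 PFNA libraries lay below every control. Il11, a further cytokine that signals through gp130, ran from 2.17 to 21.5 CPM in controls (median 11.4) and from 1.24 to 5.07 CPM with PFNA (median 2.95). The log2 fold change was -1.93 (SE 0.30, edgeR adjusted p = 3.7e-06), but only 4 of 11 PFNA libraries lay below every control, since control replicate 9 was at 2.17 CPM.

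The remaining cytokines were not called. Tnf, tumour necrosis factor, was near the limit of the table in both groups, at a median of 0.92 CPM in controls and 1.13 CPM with PFNA, and its log2 fold change of 1.14 (95% interval -0.06 to 2.33) had an adjusted p of 0.081. Csf1, the growth factor of macrophages, had a log2 fold change of -0.36 (95% interval -0.76 to 0.03, edgeR adjusted p = 0.093). The intervals of both genes reached 0.

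Both members of the STAT3 arm fell. Socs3 (chromosome 11, 117966079 to 117970047), the feedback inhibitor of gp130 signalling, stood at 26.8, 42.3 and 59.3 CPM in controls and at 3.15, 5.57 and 11.4 CPM with PFNA. Every PFNA library lay far below the lowest control, with a change of -2.92 on the log2 scale (SE 0.19, edgeR adjusted p = 1.4e-12). Stat3, the transcription factor itself, was at 166, 223 and 268 CPM in controls and at 109, 131 and 149 CPM with PFNA. The groups did not overlap, and the change was smaller than in Socs3 (log2 fold change -0.80, SE 0.078, edgeR adjusted p = 1.3e-09). Stat3 shares 72 bases with Stat5a on the opposite strand. Stat5a moved the other way, with a log2 fold change of 0.66.

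The chemokines split. Cxcl10 (chromosome 5, 92346638 to 92348889), an attractant of activated T cells that interferons induce, was at 0.20, 2.55 and 4.42 CPM in controls and at 8.72, 16.4 and 28.4 CPM with PFNA. Every PFNA library lay above every control (log2 fold change 2.76, SE 0.31, edgeR adjusted p = 1.7e-08). Ccl2, which attracts monocytes, rose from a median of 5.53 CPM (1.05 to 14.1) to 17.9 CPM (1.84 to 25.7), a change of 1.42 on the log2 scale (SE 0.38, edgeR adjusted p = 0.0017). In this gene 9 of 11 PFNA libraries lay above every control, while PFNA replicate 2, at 1.84 CPM, lay among the lowest controls. Ccl7, the monocyte attractant beside Ccl2 on chromosome 11, had medians of 0.95 and 1.21 CPM and was not called (log2 fold change 0.40, 95% interval -0.54 to 1.35, edgeR adjusted p = 0.44).

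Among chemokines that fell, Cx3cl1 (chromosome 8, 94772009 to 94782427), the membrane-bound chemokine fractalkine, was at 45.2, 52.5 and 76.4 CPM in controls and at 10.2, 16.8 and 23.2 CPM with PFNA. Its groups did not overlap (log2 fold change -1.75, SE 0.13, edgeR adjusted p = 8.4e-12). Cxcl2, an attractant of neutrophils, was at 46.8, 173 and 377 CPM in controls and at 17.2, 43.7 and 253 CPM with PFNA. It fell by 1.47 on the log2 scale (SE 0.39, edgeR adjusted p = 0.0018), with 6 of the 11 PFNA libraries below all controls and PFNA replicate 6, at 253 CPM, above the control median. Without that library the log2 fold change was -1.95 (edgeR adjusted p = 1.3e-05). Its neighbour Cxcl1, with the same block of capitals in the stretch printed above, was not called: the libraries ran from 233 to 1033 CPM in controls (median 581) and from 233 to 815 CPM with PFNA (median 462). The log2 fold change was -0.28 (95% interval -0.73 to 0.16, edgeR adjusted p = 0.24). The difference between the changes of both neighbours was not tested. Cxcl12, which retains leukocytes and progenitors in tissues, had a log2 fold change of -0.47 (edgeR adjusted p = 0.023), with medians of 13.9 and 10.6 CPM and overlapping groups.

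Among receptors, those for IL-1 and TNF fell furthest. Il1r1 (chromosome 1, 40225080 to 40317257), the signalling receptor of IL-1, was at 505, 592 and 705 CPM in controls and at 79.2, 301 and 361 CPM with PFNA (log2 fold change -1.12, SE 0.18, edgeR adjusted p = 3.4e-06). Tnfrsf1a (chromosome 6, 125349362 to 125362484), the main TNF receptor, was at 121, 155 and 187 CPM in controls and at 48.6, 63.7 and 79.4 CPM with PFNA (log2 fold change -1.29, SE 0.089, edgeR adjusted p = 2e-12). In both genes every PFNA library lay below every control. Il6st, which encodes gp130, fell less, from a median of 263 CPM (220 to 304) to 197 CPM (155 to 263), a log2 fold change of -0.37 with edgeR adjusted p = 0.00025. Il6ra, the receptor chain specific to IL-6, had a log2 fold change of -0.38 and was not called (95% interval -0.78 to 0.02, edgeR adjusted p = 0.084).

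The receptors for microbial products moved apart. Tlr4 (chromosome 4, 66827584 to 66930284), the receptor for endotoxin, was at 0.52, 1.75 and 4.43 CPM in controls and at 5.93, 11.5 and 22.3 CPM with PFNA, so that every PFNA library lay above every control (log2 fold change 2.45, SE 0.28, edgeR adjusted p = 2.1e-08). Tlr2, the receptor for bacterial lipoproteins, fell from a median of 7.08 CPM (2.94 to 11.6) to 4.10 CPM (1.54 to 8.08), a log2 fold change of -0.67 with edgeR adjusted p = 0.032. The Tlr2 call was lost, with adjusted p from 0.051 to 0.063, when any one of control replicates 1, 2, 9 and 12 or PFNA replicates 5, 6, 7 and 11 was left out. Cd14, the co-receptor of Tlr4, had medians of 4.46 and 4.43 CPM and was not called (log2 fold change -0.55, 95% interval -1.56 to 0.46, edgeR adjusted p = 0.32). Without control replicate 5, the highest library at 25.1 CPM, its log2 fold change was -0.06 (adjusted p = 0.91).

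Among adaptors and kinases 2 fell and 2 rose. Myd88, the adaptor shared by IL-1 and Toll-like receptors, was at 25.1, 30.3 and 34.9 CPM in controls and at 13.3, 16.5 and 22.7 CPM with PFNA, without overlap (log2 fold change -0.83, SE 0.089, edgeR adjusted p = 7e-09). It overlaps Acaa1a on the opposite strand, whose log2 fold change was 0.66. Traf2, an adaptor of TNF receptors, fell by 0.48 on the log2 scale (edgeR adjusted p = 0.00023), with 9 of the 11 PFNA libraries below all controls. Irak1, the kinase recruited by Myd88, rose (log2 fold change 0.29, edgeR adjusted p = 9.2e-05), as did Ikbkg, the regulatory subunit of the IkappaB kinase also called NEMO (0.42, adjusted p = 6.3e-05). In both genes 9 of 11 PFNA libraries lay above every control. Ikbkb, the catalytic subunit of the same kinase, had a log2 fold change of 0.02 (95% interval -0.14 to 0.17, edgeR adjusted p = 0.86).

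The NF-kappaB subunits did not move as a block. Relb (chromosome 7, 19606217 to 19629438), the partner of p52 in the alternative pathway, was at 44.0, 61.2 and 78.8 CPM in controls and at 76.1, 98.7 and 136 CPM with PFNA, and 10 of the 11 PFNA libraries exceeded every control (log2 fold change 0.77, SE 0.10, edgeR adjusted p = 2.5e-07). Rela, the p65 subunit, rose by less, with a change of 0.30 on the log2 scale (SE 0.065, edgeR adjusted p = 0.00018) and 8 of 11 PFNA libraries above every control. Nfkb1, the source of p50, fell from a median of 307 CPM (165 to 407) to 193 CPM (134 to 398), a log2 fold change of -0.45 with edgeR adjusted p = 0.013 and overlapping groups. Nfkb2, the source of p52, had a log2 fold change of -0.13 and was not called (95% interval -0.31 to 0.05, edgeR adjusted p = 0.18).

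Most of the NF-kappaB inhibitors among the members fell. Tnfaip3 (chromosome 10, 19000910 to 19015657), which encodes the ubiquitin-editing enzyme A20, was at 49.3, 72.9 and 194 CPM in controls and at 18.0, 32.5 and 40.8 CPM with PFNA. The groups did not overlap (log2 fold change -1.56, SE 0.22, edgeR adjusted p = 1.1e-06). Nfkbia (chromosome 12, 55489410 to 55492647), which encodes IkappaB-alpha, was at 106, 154 and 184 CPM in controls and at 83.2, 92.6 and 140 CPM with PFNA. In Nfkbia 8 of 11 PFNA libraries lay below every control (log2 fold change -0.60, SE 0.10, edgeR adjusted p = 1e-05). Nfkbie, IkappaB-epsilon, fell by 0.61 on the log2 scale (edgeR adjusted p = 0.00057), and Nfkbib, IkappaB-beta, had a log2 fold change of -0.19 and was not called (edgeR adjusted p = 0.06). Nfkbib overlaps Sirt2, which rose (log2 fold change 1.02). Icam1, an adhesion molecule for leukocytes and a target of NF-kappaB, rose from a median of 18.2 CPM (10.6 to 40.7) to 42.8 CPM (12.7 to 59.1), a change of 0.85 on the log2 scale (SE 0.25, edgeR adjusted p = 0.0037), with 7 of the 11 PFNA libraries above all controls and PFNA replicate 2 the lowest of its group. Tnfaip2, a TNF-induced gene, had medians of 10.8 and 11.2 CPM and was not called (log2 fold change 0.12, 95% interval -0.40 to 0.64, edgeR adjusted p = 0.67).

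Many markers of leukocytes, endothelium and theca and stroma were also higher in this window. Over all genes tested in it 38.0% were called higher and 35.2% lower. Of 18 leukocyte markers listed, 15 were in the table and 12 could be tested. Of these 7 were higher and 0 lower, with a median log2 fold change of 1.29 that includes Cd3e. The 7 were Cd3e, Cd68, Tyrobp, C1qa, C1qb, C1qc and Laptm5, and Cd3e passed the filter only through the PFNA group. Tyrobp, at a median of 0.50 CPM in controls and 1.54 CPM with PFNA, also needed the PFNA group to pass. None of the 15 was at 0 in all libraries. Their summed level was 1.57, 33.6 and 138 CPM in controls and 158, 364 and 727 CPM with PFNA, but most of the PFNA sum was Cd3e alone, a gene of the T-cell receptor complex, at 153 to 656 CPM with PFNA and at most 0.51 CPM in controls. Without Cd3e the sums were 1.35, 33.6 and 138 CPM in controls and 4.45, 84.1 and 193 CPM with PFNA, and the groups overlapped. The defining leukocyte genes Ptprc (CD45), Csf1r and Adgre1 had log2 fold changes of 0.98, 0.93 and 0.85 and were not called. Of endothelial markers 7 of 9 tested were higher, with sums of 41.1 to 150 CPM in controls and 43.3 to 425 CPM with PFNA. Of theca and stroma markers 8 of 10 were higher and 1 lower, with a median log2 fold change of 0.76. Their sums were 195, 899 and 1243 CPM in controls and 967, 1393 and 2698 CPM with PFNA.

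PFNA replicate 2 had the lowest leukocyte sum without Cd3e of the PFNA group, 4.45 CPM, below the control median. In that library Tlr4 was at 14.4 CPM and Cxcl10 at 17.1 CPM, both above every control, and Ccl2, at 1.84 CPM, and Icam1, at 12.7 CPM, were the lowest of the PFNA group. PFNA replicate 6 had the lowest endothelial sum, 43.3 CPM, with Tlr4 at 5.93 CPM, the lowest of the PFNA group, and Cxcl10 at 9.66 CPM, near the lowest, both above every control. At the other end, PFNA replicate 4 had the highest leukocyte and endothelial sums, 193 and 425 CPM. It also had the highest Tlr4, 22.3 CPM, and Ccl2, 25.7 CPM, with Cxcl10 at 26.1 CPM. Cxcl10 was highest, at 28.4 CPM, in PFNA replicate 8, whose leukocyte sum was 133 CPM and endothelial sum 91.2 CPM. The part of leukocytes and endothelium in the rises of Tlr4, Cxcl10, Ccl2 and Icam1 was not tested. Of granulosa markers 8 of 12 were higher and 2 lower in this window, and of oocyte markers 7 of 14 were higher and 0 lower. The shares over all genes were 38.0% higher and 35.2% lower. With the oocyte share of counts as a covariate 18 members were still called lower and 8 higher, and Nfkb1 lost its call (adjusted p = 0.071).

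**Figure D2:**
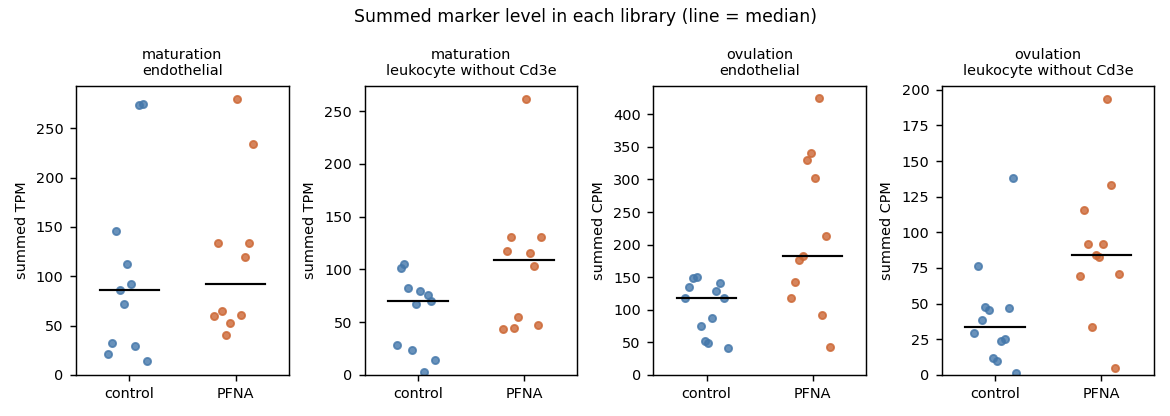
Summed levels of endothelial and leukocyte markers (leukocytes without Cd3e) in each library, in TPM for the maturation window and CPM for the ovulation window, with the line at the median. The groups overlap in every panel, and in the ovulation window the PFNA medians of 84.1 CPM for leukocyte and 182 CPM for endothelial markers lie above the control medians of 33.6 and 118 CPM.

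During maturation most members that were called rose, among them Cxcl1, Socs3, Tnfaip2 and Tlr2, and Cx3cl1 fell. Of 31 members tested by limma on log2(TPM + 1), 10 were called higher and 1 lower, and 20 were not called. Over all 13712 genes tested, 13.3% were called higher and 16.1% lower. The members' median log2 fold change was 0.31, against 0.02 over all genes. No member had all PFNA libraries above or below every control, which 0.489% and 0.788% of all genes tested showed. Of the members called, only Cxcl1 changed by at least 2-fold on the log2(TPM + 1) scale. Levels in this window are TPM, transcript abundances scaled to a fixed total, which are divided by transcript length, and the fold changes understate those of genes at low TPM.

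The split of calls over all genes depended on the scaling: after rescaling without 14 mitochondrial-like genes 3073 genes were higher and 1747 lower, against 1824 and 2206 as deposited, and 11 members were then higher and 1 lower. These mitochondrial-like genes held 18.1 to 23.5% of the total in controls and 21.2 to 27.7% with PFNA, and PFNA replicates 3 to 10, from 24.8% upwards, lay above every control. The part of that share in the members' calls was not tested beyond the rescaling. With the oocyte share of TPM as a covariate no member was called in either direction by limma, and over all genes 306 were higher and 362 lower. All 14 oocyte markers tested were lower with PFNA, with summed levels of 205 to 328 TPM in controls and 10.3 to 449 TPM with PFNA. PFNA replicates 1, 2 and 10 stood apart from the other PFNA libraries, with oocyte markers at 0.0210, 0.0170 and 0.0449% of the total, against at most 0.00266% in the others and 0.0205 to 0.0328% in controls. Of granulosa markers 8 of 12 were lower, and of leukocyte markers 2 of 7, Cd68 and C1qa, were higher. Without the covariate 16.1% of all genes were lower and 13.3% higher. Because the oocyte share largely followed the treatment, the fit with this covariate cannot separate a PFNA effect from the oocyte shift. The part of these shifts in the members' calls was not tested otherwise.

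**Figure D3:**
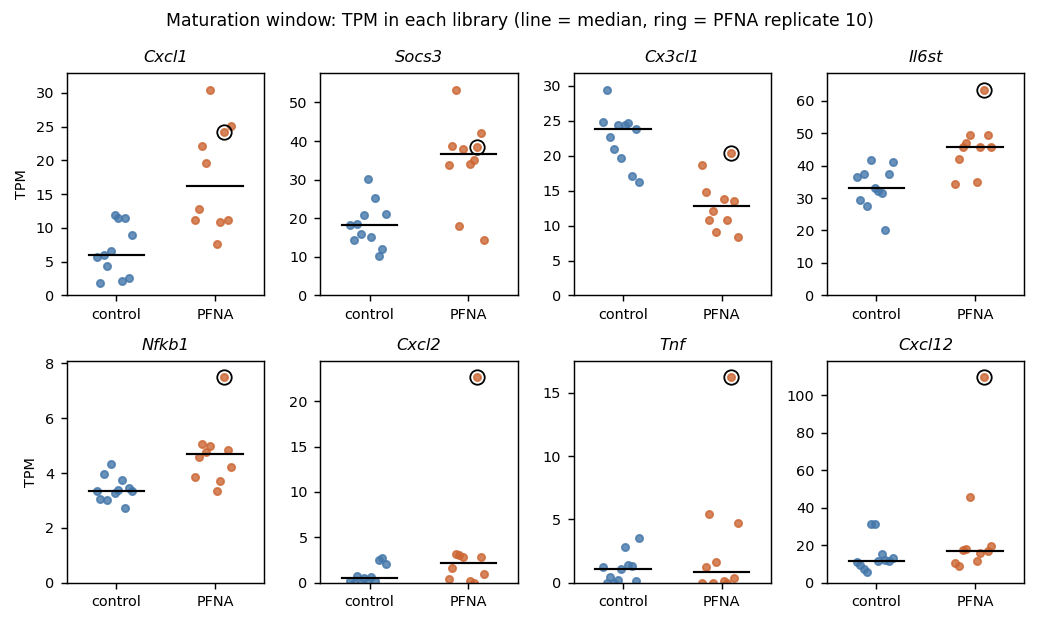
Levels of 8 members in the maturation window in TPM, 1 point per library, with 11 control and 10 PFNA libraries per panel, the line at the median and each vertical axis starting at 0. The groups overlap in every panel, and a ring marks PFNA replicate 10, which lies far above the other PFNA libraries for Il6st, Nfkb1, Cxcl2, Tnf and Cxcl12.

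The cytokines were scarce. Il6, Il11 and Lif had means under 1 TPM and were too low to test: Il6 ran from 0 to 1.21 TPM in controls and from 0 to 2.71 TPM with PFNA, Il11 from 0 to 0.38 and from 0 to 1.85 TPM, and Lif from 0.15 to 0.94 and from 0.11 to 1.38 TPM. Il6ra, Tlr4 and Traf1 were also too low to test, with the highest library at 1.24, 0.97 and 0.44 TPM. The changes of Il6, Il11, Lif and Tlr4 in the ovulation window thus have no counterpart tested here. Tnf and Csf1 were not called, with log2 fold changes of 0.37 (95% interval -0.60 to 1.34, limma adjusted p = 0.59) and 0.31 (-0.13 to 0.75, adjusted p = 0.28). Without PFNA replicate 10, at 16.3 TPM, the log2 fold change of Tnf was 0.05 (adjusted p = 0.94).

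Cxcl1 (chromosome 5, 90891241 to 90893115), which attracts neutrophils, was at 1.90, 5.99 and 11.9 TPM in controls and at 7.60, 16.2 and 30.5 TPM with PFNA. It rose by 1.34 on the log2 scale (SE 0.30, limma adjusted p = 0.002), and 6 of the 10 PFNA libraries exceeded every control. Cx3cl1 was at 16.3, 23.8 and 29.5 TPM in controls and at 8.38, 12.8 and 20.4 TPM with PFNA, a change of -0.76 on the log2 scale (SE 0.13, limma adjusted p = 0.00025), with 8 of the 10 PFNA libraries below all controls. It was the only member called lower in both windows. The other 5 chemokines were not called, with log2 fold changes from 0.44 in Ccl2 to 0.97 in Ccl7. Cxcl2 and Ccl7 had control means under 1 TPM and passed the filter only through the PFNA group. Cxcl2 was at a median of 0.48 TPM in controls and 2.23 TPM with PFNA, with PFNA replicate 10 at 22.7 TPM. Without that library its log2 fold change went from 0.81 to 0.48 (limma adjusted p = 0.3).

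Socs3 was at 10.1, 18.2 and 30.2 TPM in controls and at 14.4, 36.6 and 53.3 TPM with PFNA. It rose by 0.86 on the log2 scale (SE 0.20, limma adjusted p = 0.0033), and 8 of the 10 PFNA libraries exceeded every control, the opposite direction to the ovulation window. Il6st, the gp130 chain above it, was at 20, 33.2 and 41.7 TPM in controls and at 34.2, 45.7 and 63.4 TPM with PFNA (log2 fold change 0.44, SE 0.12, limma adjusted p = 0.0062), again with 8 of 10 above every control. Stat3 had a log2 fold change of 0.09 and was not called (95% interval -0.12 to 0.29, limma adjusted p = 0.53).

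Of the NF-kappaB subunits 3 of 4 rose. Nfkb1 was at 2.73, 3.35 and 4.32 TPM in controls and at 3.34, 4.68 and 7.51 TPM with PFNA (log2 fold change 0.35, SE 0.096, limma adjusted p = 0.0094). Relb rose by 0.31 (limma adjusted p = 0.013) and was the only member called higher in both windows. Nfkb2 rose by 0.21 (limma adjusted p = 0.035). Rela, at about 96 TPM in both groups, had a log2 fold change of 0.00 (95% interval -0.13 to 0.14, limma adjusted p = 0.98). Per length, Rela and Nfkb2 were the most abundant subunits in controls, at medians of 96.2 and 35.9 TPM, and Relb and Nfkb1 were lower, at 6.15 and 3.35 TPM.

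Among receptors Tlr2 rose by 0.52 on the log2 scale (limma adjusted p = 0.028), from a median of 3.03 to 4.15 TPM. Il1r1, with a log2 fold change of 0.37 and a 95% interval of 0.08 to 0.66, missed the threshold after adjustment (limma adjusted p = 0.05), although 7 of 10 PFNA libraries lay above every control. Tnfrsf1a (0.23, adjusted p = 0.29) and Cd14 (0.22, adjusted p = 0.49) were not called. Ikbkb was the only adaptor or kinase called, with a log2 fold change of 0.27 (limma adjusted p = 0.016), and Myd88, Irak1, Traf2 and Ikbkg had log2 fold changes between -0.02 and 0.24.

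Among inhibitors and targets Nfkbie (log2 fold change 0.47, limma adjusted p = 0.046) and Tnfaip2 (0.64, adjusted p = 0.022) rose. Nfkbia, the most abundant member per length at a control median of 142 TPM, had a log2 fold change of -0.03 (95% interval -0.22 to 0.16, limma adjusted p = 0.84). Nfkbib, Tnfaip3 and Icam1 had log2 fold changes of 0.00, 0.08 and 0.34 and were not called. The calls nearest to the threshold were lost in some fits that left out 1 library, with log2 fold changes of 0.46 to 0.59 in Tlr2, 0.18 to 0.25 in Nfkb2 and 0.39 to 0.54 in Nfkbie over all such fits. The call was lost in Tlr2 for control replicate 3 or PFNA replicate 4, 7, 8 or 10 (limma adjusted p 0.051 to 0.055), in Nfkb2 for any of 9 libraries (0.05 to 0.07) and in Nfkbie for any of 13 libraries (0.052 to 0.084). PFNA replicate 10 was the highest PFNA library for 14 of the 31 members tested, and it also had the highest leukocyte sum, 261 TPM, and endothelial sum, 280 TPM, of the PFNA group. PFNA replicates 1 and 2, which like replicate 10 retained oocyte markers, were the lowest PFNA library for 11 and 7 of the 31 members.

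**Figure D4:**
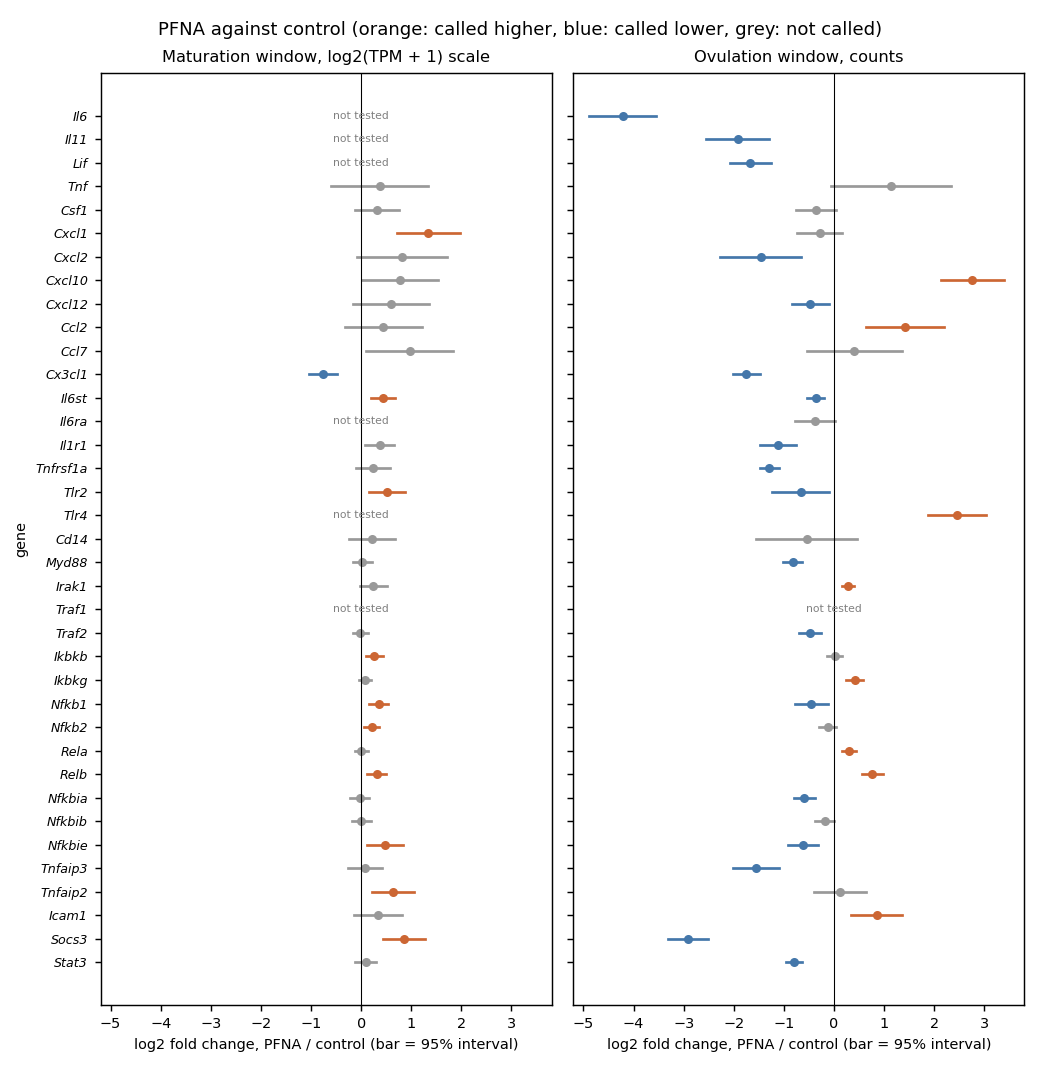
Log2 fold change of PFNA against control for each member with its 95% interval, in order of role, on log2(TPM + 1) for the maturation window (left) and on counts for the ovulation window (right). Orange points were called higher and blue points lower at an adjusted p under 0.05, and grey points were not called. Il6, Socs3 and Il11 lie farthest to the left in the ovulation window, at -4.22, -2.92 and -1.93, and Cxcl10 and Tlr4 farthest to the right, at 2.76 and 2.45.

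The direct test of the difference between windows, ovulation minus maturation, was made for 31 members. It found 19 more negative and 4 more positive in the ovulation window by limma at an adjusted p under 0.05. Over all 11198 genes 35.6% were more negative and 32.0% more positive. The members' median difference was -0.67, against -0.04 over all genes. Cxcl2, at -2.52, is among the 19, but it passed the maturation filter only through the PFNA group, where PFNA replicate 10 stood far above the rest, so its difference is given as a value only. Of the others the largest was in Socs3 (-3.61, SE 0.26, adjusted p = 2e-15), followed by Cxcl1 (-1.66, SE 0.37, adjusted p = 0.00016) and Il1r1 (-1.60, SE 0.24, adjusted p = 1.6e-07). In the other direction the effect on Cxcl10 was 1.61 more positive (SE 0.44, adjusted p = 0.0015) and that on Relb 0.43 (SE 0.14, adjusted p = 0.0046). Cxcl10 had maturation medians of 0.62 TPM in controls and 2.65 TPM with PFNA. At such levels the log2(TPM + 1) scale understates the maturation effect, so the difference for Cxcl10 may be overstated. Il6st, Tlr2, Nfkb1, Nfkbie and Socs3 were called higher in the maturation window and lower in the ovulation window, and the difference passed the test in each of these 5 genes. Maturation and ovulation controls differ in treatment and in the unit of their table, and the values compare fold changes, not levels.

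The rest of the NF-kappaB pathway, 56 further genes of which 47 were tested in the ovulation window, held 28 that fell and 11 that rose there, with a median log2 fold change of -0.31. Over all genes tested there 35.2% fell and 38.0% rose. Ripk2, the kinase below the NOD receptors, fell from a median of 92.9 to 28.2 CPM (log2 fold change -1.60, edgeR adjusted p = 1.3e-12), Zc3h12a, the RNase Regnase-1, by 1.36 and Malt1, a paracaspase, by 1.07 on the log2 scale. Traf5 and the deubiquitinase gene Cyld rose, with log2 fold changes of 1.61 and 1.0. Tnip3, also among the 11, was at a median of 0.62 CPM in controls and 3.5 CPM with PFNA. It passed the filter only through the PFNA group, so its log2 fold change of 2.14 is given as a value only. Of 38 of these genes tested in the maturation window 3 rose and 3 fell, with a median of 0.03. Over all genes tested in that window 13.3% rose and 16.1% fell.

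Of 33 further genes of the IL-6 family and the JAK-STAT pathway 31 were tested in the ovulation window, and 14 fell and 10 rose, against 35.2% and 38.0% of all genes. Ptpn6, among the 10, was low in controls, at a median of 0.65 CPM against 2.94 CPM with PFNA. Ctf1 and Cntf, ligands of the family, were not called (log2 fold changes 0.25 and -0.02, edgeR adjusted p = 0.44 and 0.97), and Osm was too low to test. Clcf1, a further ligand of the family, fell from a median of 37.6 to 5.96 CPM (log2 fold change -2.55, edgeR adjusted p = 8.4e-09). Cish, a feedback inhibitor related to Socs3, fell by 2.86 on the log2 scale, and Osmr, the oncostatin M receptor, by 1.05. Jak3 and the IL-11 receptor gene Il11ra1 rose, with log2 fold changes of 1.81 and 1.38. Of 29 tested in the maturation window 8 rose and 6 fell, against 13.3% and 16.1% of all genes. Cntf was higher there (log2 fold change 1.18, limma adjusted p = 0.015). Socs1 fell from a median of 41.0 to 13.2 TPM (-1.53, limma adjusted p = 0.00011), the opposite direction to Socs3 in the same window.

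Of 53 other cytokines and chemokines 26 were tested in the ovulation window, of which 10 rose and 8 fell, near the 38.0% and 35.2% of all genes. Among the 10, Ccl3, Ccl4 and Tnfsf10 had control medians of 0.45, 0.18 and 0.56 CPM. With PFNA their medians were 4.08, 1.14 and 2.63 CPM. They needed the PFNA group to pass the filter, so the count of 10 rests in part on it. Cxcl5, a neutrophil attractant, fell from a median of 18.0 to 1.37 CPM (log2 fold change -3.78, edgeR adjusted p = 5.7e-13), Tnfsf9 by 2.78 and Il7 by 2.56 on the log2 scale. Kitl, the Kit ligand, Ackr3, a scavenger of Cxcl12, and Ccl25 rose, with log2 fold changes of 1.72, 1.67 and 1.35. Of 16 tested in the maturation window 2 rose and 3 fell, near the 13.3% and 16.1% of all genes. Tnfsf11 was higher there (1.09, limma adjusted p = 0.028). Cxcl13, an attractant of B cells, fell from a median of 14.0 to 3.44 TPM (-1.65, limma adjusted p = 0.00099). Members and these lists were compared with no test between lists.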

How the data were processed

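RNA was isolated with a kit for small inputs, selected on poly-T beads and primed with random hexamers, per the labels' protocols. Partek, Bowtie2 and HISAT2 are named in the submitters' processing notes, without versions; roles, annotation and use of strand are not given in the sources used here. The ovulation table deposited by the authors holds estimated counts per gene, rounded here to whole numbers, with totals of 12.0 to 16.0 in controls and 10.6 to 19.5 with PFNA, in units of 1e+06 counts. The maturation table deposited by the authors is named as counts but holds TPM: each of its 21 libraries sums to 1000000 and 82.6% of values were not whole within 1e-6, so depth is unknown and no counting limit is given.

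Ovulation was tested with edgeR 4.0.16 in R 4.3.3 (quasi-likelihood, TMM, filterByExpr, robust) over all genes, and maturation with limma 3.58.1 (trend, robust) on log2(TPM + 1) where the mean over libraries reached 1 TPM. SE in edgeR fits is the fold change over the square root of F. The difference between windows was the limma effect on log2(CPM + 1) minus that on log2(TPM + 1), with Satterthwaite degrees of freedom. P-values were Benjamini-Hochberg adjusted over all genes tested. The scripts were checked on simulated data. Alternatives (scaling, filters, pseudocount, DESeq2 1.42.0, a replicate block, the oocyte share, libraries left out) are in the closing section.

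Sample titles gave the columns. The column taken as maturation control replicate 6 differs from its title by 1 letter. Maturation control replicate 4 was not analysed here. The labels give no batch. Within a group no pair of libraries was identical. The lowest chi-square per degree of freedom between ovulation libraries of a group was 7.54, above sampling noise. Gene symbols that a spreadsheet had turned into dates (24 in maturation, 26 in ovulation) did not enter the difference between windows. Gene coordinates come from the maturation table (GRCm38, counted from 1). Reads of overlapping genes may be shared where strand was not used, and Il1r1, Nfkb2, Rela and Stat3 had fractional counts in 22, 21, 22 and 18 of 23 ovulation libraries. All members are reported. From each further list up to 3 genes higher and 3 lower per window with the smallest p were named, among those called with a change of 2-fold or more. A gene that met this rule is left out of the text. Ctf1, Cntf and Osm of the ovulation window fall outside it and were chosen after their values were seen. The members, the lists and the tests were chosen with earlier results of these data known.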

Additional observations from a re-analysis of the deposited data

Results flagged for a closer look

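In 9 of 37 members searched, 1 PFNA library of the maturation window lay far from the other 9. For normally distributed, independent values the rule would flag about 1 in 20 groups, or 1.85 of 37. The TPM of several members are skewed and all members share the same libraries. The 2 numbers are therefore not a test against chance. PFNA replicate 10 was the library in 7 of them, in TPM, with the next highest PFNA library in brackets: Tnf 16.25 (5.438), Csf1 8.981 (4.855), Cxcl2 22.66 (3.12), Cxcl12 109.8 (45.73), Il6st 63.35 (49.29), Irak1 98.0 (73.82) and Nfkb1 7.506 (5.074). The remaining 2 were Lif in PFNA replicate 2, at 1.379 TPM against 0.6614, and Relb in PFNA replicate 3, at 10.26 TPM against 8.191. Of these members Il6st, Nfkb1 and Relb were called, and each kept its call when any 1 library was left out.

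The PFNA effect differed between windows in 23 members by the limma test of the difference, ovulation minus maturation on the log2 scale. More negative in the ovulation window were Socs3 (-3.615), Cxcl1 (-1.663), Il1r1 (-1.597), Tnfaip3 (-1.524), Tnfrsf1a (-1.512), Tlr2 (-1.086), Cxcl12 (-1.031), Nfkbie (-0.9837) and Cx3cl1 (-0.9593). They were followed by Stat3 (-0.8705), Myd88 (-0.8261), Il6st (-0.8209), Nfkb1 (-0.8101), Csf1 (-0.6686), Nfkbia (-0.5629), Traf2 (-0.4637), Nfkb2 (-0.3428) and Ikbkb (-0.2566). The value for Cxcl2 was -2.522, with a maturation effect that comes from a gene tested only through its PFNA group. More positive were Cxcl10 (1.609), Relb (0.4323), Ikbkg (0.326) and Rela (0.2963).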

How the results depend on the processing

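In the ovulation window 8 to 9 members were called higher and 17 to 19 lower under every alternative run. In the maturation window 7 to 12 were higher and 1 lower, except with the oocyte share as a covariate, where 0 were higher and 0 lower. For the difference between windows 4 were more positive and 17 to 20 more negative under its own alternatives. The oocyte share as a covariate was not run for the difference. Leaving out each library in turn gave 7 to 12 higher and 1 lower in the maturation window, and 8 to 9 higher and 17 to 19 lower in the ovulation window. Depth is unknown in the maturation table, and 6 members there were too low to test. Same-numbered libraries did not deviate together (correlations of -0.152 to 0.172 over 9 pairs and -0.196 to 0.0807 over 11), so the numbers were not taken to pair them. With the replicate block 8 members were higher and 18 lower in the ovulation window, 7 and 1 in the maturation window, and 4 and 17 for the difference. Over all genes the block moved the maturation calls from 1824 to 1036 higher and from 2206 to 1855 lower.

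Calls of single members gained by leaving out 1 library were Ccl7 and Il1r1 in maturation (PFNA replicates 1 and 6, and control replicate 5 or PFNA replicates 1, 7 and 10), and in ovulation Csf1 (PFNA replicates 8 and 10), Il6ra (PFNA replicate 11), Nfkb2 (PFNA replicate 5), Nfkbib (control replicates 6 and 7, PFNA replicate 5) and Tnf (control replicate 5). Of 2117 member values under an alternative, 44 changed sign, none of them called either way. In ovulation Ikbkb gave -0.0182 without a filter and -0.0327 to 0.0385 with 1 library left out. In maturation with the oocyte share Ccl2 gave -0.5596, Ccl7 -0.123, Cd14 -0.0163 and Nfkbia 0.0505. Rescaling without mitochondrial-like genes gave Nfkbia 0.0518 and Traf2 0.0555. Median-ratio factors gave Myd88 -0.0067, Nfkbib -0.0257 and Rela -0.0278, and the block gave Myd88 -0.0052. Without PFNA replicates 1 and 2 Nfkbia gave 0.0201 and Rela -0.0259 in maturation, and the differences were -0.034 for Irak1 and -0.0161 for Tnf. With 1 library left out Myd88 gave -0.0249 to 0.0615, Nfkbia -0.0811 to 0.0016, Nfkbib -0.0532 to 0.0439, Rela -0.0187 to 0.0314, Tnfaip3 -0.0066 to 0.1485 and Traf2 -0.0437 to 0.014. The cause of the changes was not tested.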

Other observations

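In the ovulation window Cd3e, a gene of the T-cell receptor complex, was at 0, 0.17 and 0.51 CPM in controls. With PFNA it was at 153, 217 and 656 CPM, a log2 fold change of 10.48. Cd3e passed the filter only through the PFNA group, so its change is given as a value only. Cd3g was listed at 0 in every control and at 1.27, 3.99 and 19.4 CPM with PFNA. Cd3d was listed at 0 in every control, with a PFNA median of 1.2 CPM, and Cd247, which encodes a further chain of the complex, had medians of 0 and 0.26 CPM. Lck, the kinase of T-cell receptor signalling, had medians of 3.75 and 6.65 CPM, and Mpzl2, the gene beside Cd3e, fell from a median of 154 to 37.1 CPM. In the maturation window Cd3e was at most 0.22 TPM in any library. These genes were chosen after their values were seen.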
